A study of Mus musculus with 12 samples.

Results

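The genes described here are 33 genes of cholesterol and fatty acid synthesis and of the SREBP axis that controls them, followed in the cortex of mice that lack a DNA methyltransferase in the oligodendrocyte lineage. They were taken by symbol from a list drawn up with earlier results of these data known. The expression table holds 23354 gene symbols, and all 33 were found with 1 row each. Msmo1 stands in the table under its older symbol Sc4mol. By their place in the pathway they fall into 7 genes of the early sterol steps, 11 genes of the late sterol steps, 6 regulators and 9 genes of fatty acid synthesis. RNA-seq was run on dissected cortex of 12 C57BL/6 mice, 3 in each of 4 groups, on postnatal day 16. Dnmt1 CKO mice were Olig1 cre/+ with both Dnmt1 alleles floxed, and Dnmt1 control mice were their littermates with the same floxed alleles on an Olig1 +/+ background. Dnmt3a CKO and Dnmt3a control mice were built in the same way with floxed Dnmt3a alleles. Each CKO group therefore differs from its controls in the Cre-driven deletion and also in carrying a cre allele at Olig1, an oligodendrocyte lineage gene, and mice with cre alone were not analysed here. Recombination takes place in cells that expressed Olig1, whereas the RNA came from the whole cortex, so fewer cells of a type and less RNA per cell cannot be told apart.

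Cholesterol and long fatty acids are the main lipids of the myelin membrane. Cholesterol hardly crosses the blood-brain barrier and is made within the brain, with a peak during postnatal myelination when oligodendrocytes use it in bulk. The early steps build farnesyl diphosphate from acetyl-CoA through mevalonate, and the late steps turn squalene into cholesterol. When sterols are low, the SREBP precursors are carried by Scap from the endoplasmic reticulum, where Insig1 holds them, and the released factors bind sterol regulatory elements in the promoters of these genes, next to sites for NF-Y and Sp1.

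Promoter sequences of RefSeq (GRCm38.p6, 250 bases before and 50 after each gene's start) were at hand for 26 of the 33 members and for 27025 genes in all. Fdft1, Fdps, Fads1, Scd1, Scd2, Sqle and Stard4 had no entry. The 27025 genes were not limited to genes expressed in this cortex, as all members were, so the shares over all promoters are an unlike background. On both strands, the NF-Y box CCAAT was found in 21 of the 26 promoters (80.8%), against 41.1% of all promoters. The GC box GGGCGG, the letters of an Sp1 site, was found in 22 of 26 (84.6%), against 38.2%. All 9 late-step promoters in the table held both boxes. The core letters TCACNCCA of a sterol regulatory element were found in 3 promoters (11.5%, against 4.97%), those of Hmgcs1, Msmo1 and Srebf2. The E-box CACGTG was found in 5 (19.2%, against 8.09%). The promoters of 2 genes are shown over the 150 bases before the start because their genes fell in the Dnmt1 CKO cortex and no annotated exon reaches into these bases. Elovl1 had the largest change of all members, and Hmgcs1 is the only 1 of the 6 called members in the promoter table whose promoter held the element's core. Capitals mark the sterol regulatory element core, the NF-Y box (CCAAT or ATTGG) and the GC box (GGGCGG or CCGCCC).
Hmgcs1, chr13:119690201-119690350, plus strand: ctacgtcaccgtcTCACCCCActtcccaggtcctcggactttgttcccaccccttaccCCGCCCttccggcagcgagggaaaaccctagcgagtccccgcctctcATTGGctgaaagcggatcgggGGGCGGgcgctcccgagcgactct
Elovl1, chr4:118427943-118428092, plus strand: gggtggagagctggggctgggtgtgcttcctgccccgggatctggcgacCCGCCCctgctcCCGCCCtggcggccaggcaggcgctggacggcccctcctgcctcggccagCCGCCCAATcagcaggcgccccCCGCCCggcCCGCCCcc
The core in the Hmgcs1 promoter began 137 bases before the start and its NF-Y box 45 bases before it. In the Elovl1 promoter the NF-Y box began 35 bases before the start and shares bases with 1 of the 5 GC boxes of this stretch. The cores in the other promoters, and the NF-Y box nearest the start in 3 further promoters whose genes fell, are shown with 11 bases on either side and the motif in capitals.
Msmo1, chr8:64733737-64733766, minus strand: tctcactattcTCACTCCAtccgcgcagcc
Srebf2, chr15:82147096-82147125, plus strand: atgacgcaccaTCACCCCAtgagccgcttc
Cyp51, chr5:4104711-4104737, minus strand: gctgtccgccaCCAATctggtcctgag
Idi1, chr13:8885581-8885607, plus strand: tccaaggtgccATTGGctggcgaccga
Lss, chr10:76531532-76531558, plus strand: gtgatgctctgATTGGccgagctcgca
The NF-Y box began 29 bases before the start in Cyp51, 14 in Idi1 and 62 in Lss. These matches are letters in a window, and binding was not measured.

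Levels are given as FPKM, a fragment count corrected for transcript length and for the size of the library, which lets genes be compared per length. Averaged over the 12 libraries, Scd2 had the highest level of the members (191 FPKM), followed by Hmgcs1 (116 FPKM), Fads2 (54.1 FPKM) and Fads1 (42.9 FPKM), and Lbr the lowest (2.99 FPKM). All 33 members passed the minimum mean of 0.5 FPKM that a row needed to be tested, as did 14115 rows in all. Dnmt3a stood at 31.1 and 28.7 FPKM in 2 of its controls and 13.6, 14.2 and 15.4 FPKM in CKO mice, but the library labelled Dnmt3a control replicate 2 was at 16.9 FPKM, so the counts and medians of the Dnmt3a line are also given without it. Dnmt1 stood at 10.6, 10.2 and 9.78 FPKM in its own controls against 7.26, 9.11 and 9.09 FPKM in CKO mice, which did not overlap but did not pass the threshold (adjusted p = 0.29). Olig1 fell in the Dnmt1 line, from 50.9, 46.6 and 41.96 to 20.6, 21.9 and 18.4 FPKM. In the Dnmt3a line it was at 48.4, 49.8 and 44.1 FPKM in control mice and 30.6, 38.8 and 32.2 FPKM in CKO mice, which did not overlap and did not pass (−0.49, adjusted p = 0.66).

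Transcripts of 8 members were lower in the Dnmt1 CKO cortex than in its controls. Elovl1 changed most, with a mean 50.1% below that of the controls, and Scd1, Idi1 and Cyp51 followed at 35.0%, 31.9% and 30.7% below it. Of the 33 members, 8 fell and 0 rose at 10% FDR in limma's moderated test on log2(FPKM + 0.1), where 3.15% of all rows passed and 2.3% of all rows passed as lower. In all 3 CKO mice 25 of the 33 members were below all 3 controls, against 14.4% of all rows. Without regard to any test, 32 of 33 members had a lower mean in the CKO mice, as had 58.5% of all rows, and the median log2 fold change was −0.25 over the members and −0.020 over all rows. By size, 8 members were at least 25% lower in mean FPKM, 17 were 10% to 25% lower, and 8 changed by under 10%.

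**Figure D1:**
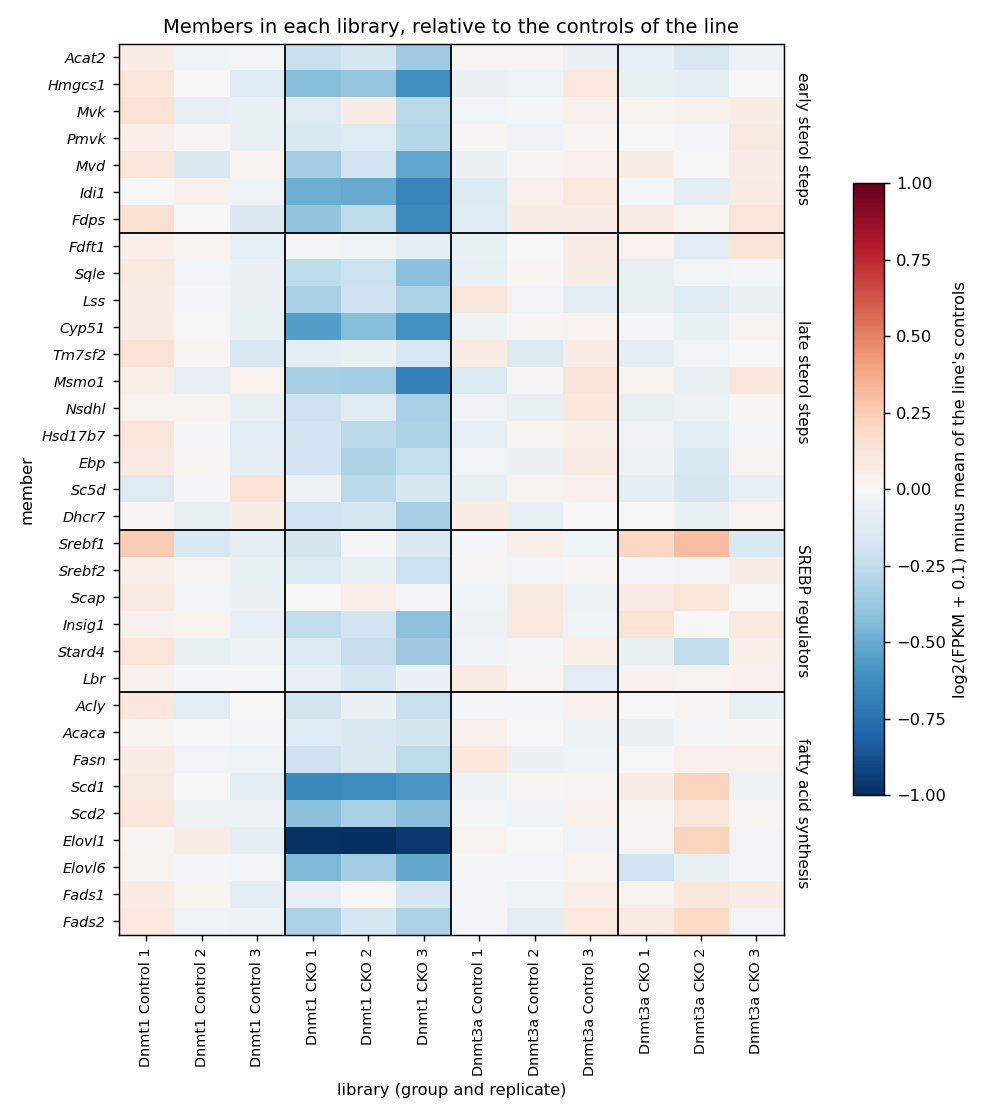
Heat map of the 33 members (rows, by role) in the 12 libraries (columns), colored by log2(FPKM + 0.1) minus the mean of the 3 controls of the same line, blue for lower. The 3 Dnmt1 CKO columns are blue in nearly all rows and darkest at Elovl1, while the Dnmt3a CKO columns stay pale.

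The 7 genes of the early steps were all lower on average in the Dnmt1 CKO mice, with a median log2 fold change of −0.35, and 2 of them, Hmgcs1 and Idi1, fell past the threshold. Hmgcs1 (chr13:119690379-119708260, GRCm38 as for all gene positions), the HMG-CoA synthase that commits acetyl-CoA units to the mevalonate route, was at 142, 131 and 120 FPKM in control mice and 97.3, 99.9 and 85.1 FPKM in CKO mice. The highest CKO value lay 20.4 FPKM below the lowest control, and the log2 fold change was −0.48 (SE 0.0843, adjusted p = 0.064). Idi1 (chr13:8885501-8892451), the isomerase that provides the reactive isoprene unit, was at 23.0, 23.6 and 22.2 FPKM in control mice and 16.3, 16.1 and 14.4 FPKM in CKO mice. The groups stood well apart, with a log2 fold change of −0.55 (SE 0.0565, adjusted p = 0.0095). Of the 50-base words of the Idi1 transcripts 25.3% also occur in other annotated genes, mostly the processed pseudogene Gm13502, and 11.6% of those of Hmgcs1 do, mostly its antisense gene Gm48342, so reads of these genes may have been shared. Strand use in the counting is not given in the sources used here.

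The other 5 early genes did not pass. Fdps, the farnesyl diphosphate synthase at the branch point to all isoprenoids, was at 45.1, 40.3 and 36.6 FPKM in control mice and 30.8, 33.9 and 25.9 FPKM in CKO mice (log2 fold change −0.43, SE 0.119, adjusted p = 0.19). Mvd, the mevalonate diphosphate decarboxylase, was at 12.5, 10.4 and 11.9 FPKM against 9.08, 10.1 and 8.04 FPKM (−0.35, adjusted p = 0.21). In both genes the groups were separate, but the spread within them was wide, and Dnmt1 CKO replicate 3 was the lowest. Acat2, the thiolase that opens the route, had a log2 fold change of −0.25 (adjusted p = 0.12), and the phosphomevalonate kinase gene Pmvk one of −0.19 (adjusted p = 0.21), both with separate groups. Mvk, the mevalonate kinase, overlapped between the groups (−0.11, SE 0.107). Acat2 shares 39.1% of its words with other genes, mainly Acat3, and Fdps 26.2%, mainly the overlapping Gm43738.

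The late steps showed a smaller median, −0.25, with all 11 genes lower on average and 2, Cyp51 and Lss, past the threshold. Cyp51 (chr5:4081145-4104746), the demethylase that acts on lanosterol, was at 19.7, 18.6 and 17.8 FPKM in control mice and 12.7, 13.9 and 12.3 FPKM in CKO mice. The highest CKO value lay 3.94 FPKM below the lowest control, and the log2 fold change was −0.53 (SE 0.0601, adjusted p = 0.014). Lss (chr10:76531588-76557138), the cyclase that forms lanosterol, was at 8.40, 7.90 and 7.65 FPKM against 6.35, 6.92 and 6.38 FPKM. The groups did not overlap, but the log2 fold change of −0.28 (SE 0.0569, adjusted p = 0.092) lost its call whichever of the 6 libraries was left out (adjusted p up to 0.29 over the alternatives).

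Msmo1, an oxidase of the sterol demethylation complex, had the second-largest change of the late steps but missed the threshold. It was at 37.0, 33.8 and 36.7 FPKM in control mice and 28.3, 28.3 and 22.4 FPKM in CKO mice (−0.45, SE 0.1, adjusted p = 0.12). Its groups were separate, and Dnmt1 CKO replicate 3 lay below the other CKO mice; without that library Msmo1 passed with a log2 fold change of −0.34. The partners of Msmo1 in that complex, Nsdhl and Hsd17b7, were at −0.22 and −0.25 (adjusted p = 0.22 and 0.21). Sqle, the squalene epoxidase and a control point of the late route, was at 31.3, 28.9 and 28.2 FPKM against 24.7, 25.4 and 22.1 FPKM (−0.29, SE 0.0665, adjusted p = 0.12). The isomerase gene Ebp (−0.25, adjusted p = 0.16) and Dhcr7, which reduces the last precursor in 1 of the branches (−0.23, adjusted p = 0.15), also had separate groups. Ebp and Nsdhl lie on the X chromosome, and the sex of the mice is not given in the sources used here. With the level of Xist as a covariate no further late gene passed, while Lss no longer did.

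Fdft1, the squalene synthase at the entry of the late steps, differed least among the sterol enzymes. It was at 24.0, 23.8 and 21.9 FPKM in control mice and 23.0, 22.6 and 21.9 FPKM in CKO mice, with a log2 fold change of −0.047 (95% interval −0.16 to 0.062, adjusted p = 0.69). The 2 groups overlapped. Of the exon bases of Fdft1 18.3% overlap Ctsb on the opposite strand, and 26.5% of its words are shared with other genes. The sterol reductase gene Tm7sf2 (−0.11) and the desaturase gene Sc5d (−0.16) overlapped between the groups as well.

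Early and late steps were compared in each mouse as the mean log2(FPKM + 0.1) over the 7 and the 11 genes. The early mean went from 4.70 ± 0.083 (SD, n = 3) in the Dnmt1 controls to 4.37 ± 0.131 in the CKO mice, a difference of −0.34 on the log2 scale. The late mean went from 3.78 ± 0.0499 to 3.52 ± 0.0641, a difference of −0.26. Both means were lower in every CKO mouse than in every control. The late minus early difference was −0.97, −0.91 and −0.91 in the controls and −0.84, −0.92 and −0.78 in the CKO mice. The ranges overlapped, through CKO replicate 2 alone. The shift of 0.081 was larger than the SD of the controls (0.033) and that of the CKO mice (0.073), and it was not tested. Leaving out Dnmt1 CKO replicate 2 gave a shift of 0.12, and leaving out replicate 3 of that group gave 0.046. Dnmt1 CKO replicate 3 had the lowest value of all 12 libraries in 7 of 7 early genes, against 6 of 11 late genes, and in 23 of the 33 members. In the Dnmt3a line the late minus early difference was −0.85 ± 0.0286 in the controls and −0.89 ± 0.00321 in the CKO mice. All 3 CKO values, −0.891, −0.897 and −0.892, lay below all 3 control values, −0.828, −0.884 and −0.847, the opposite direction to the Dnmt1 line, and the difference between these means, −0.041, was −0.056 without the library labelled Dnmt3a control replicate 2.

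**Figure D2:**
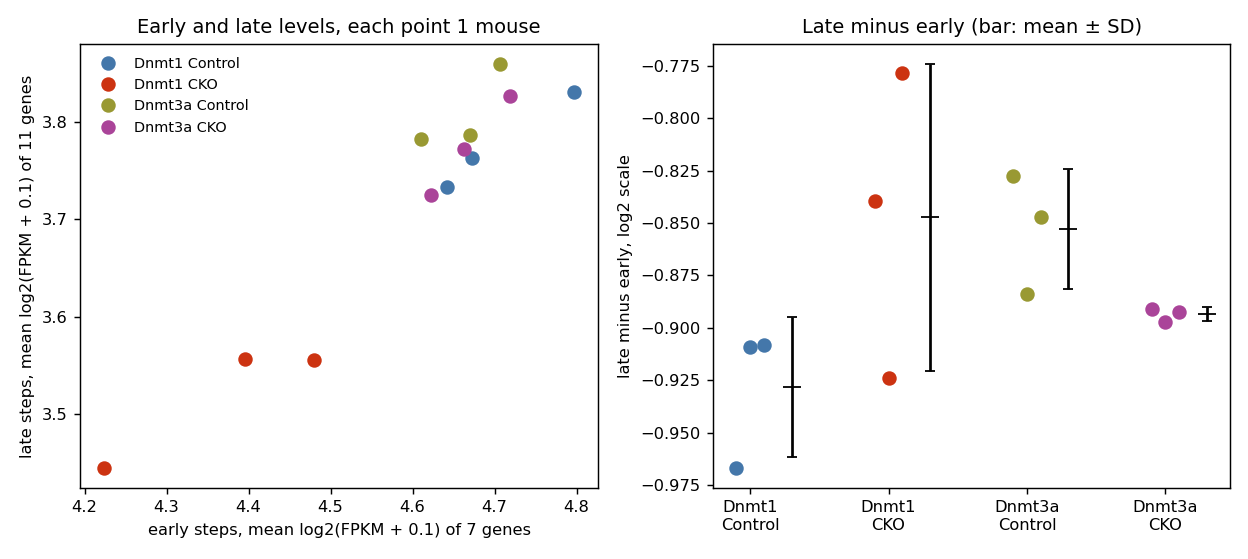
Left, mean log2(FPKM + 0.1) of the 7 early genes (x) and the 11 late genes (y), each point 1 mouse colored by group; right, late minus early in each mouse with the mean ± SD of each group. The 3 Dnmt1 CKO mice lie lowest on both axes of the left panel, while on the right their range, −0.92 to −0.78, overlaps that of their controls, −0.97 to −0.91, and the 3 Dnmt3a CKO mice lie just below their controls.

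Among the regulators 0 of 6 passed the threshold, with a median of −0.13. An unadjusted p under 0.05 was reached by 3 of 6, and by 2113 of the 14115 rows tested in this line. Srebf2, the SREBP gene tied most closely to sterol synthesis, was at 38.1, 37.3 and 35.2 FPKM in Dnmt1 control mice and 33.6, 35.1 and 31.7 FPKM in CKO mice. The groups were separate by a small margin, with a log2 fold change of −0.14 (SE 0.0492, adjusted p = 0.27). Srebf1, tied more to fatty acid synthesis, was at 7.17, 5.39 and 5.596 FPKM against 5.28, 5.94 and 5.42 FPKM (−0.11, SE 0.119), and its difference turned to 0.011 without Dnmt1 control replicate 1. Scap, the escort of the precursors, was at 19.7, 18.3 and 17.9 FPKM against 18.7, 19.3 and 18.4 FPKM and was the only member with a higher mean in the CKO mice (0.013, 95% interval −0.097 to 0.12); this turned to −0.015 without control replicate 3 and to −0.0069 without CKO replicate 2. Insig1, itself a transcriptional target of SREBP, was at 21.8, 21.7 and 20.0 FPKM against 17.9, 18.5 and 15.9 FPKM. It had the largest change of the 6 (−0.28, SE 0.0684, adjusted p = 0.14), again with the lowest value in Dnmt1 CKO replicate 3. The sterol transporter gene Stard4 was at −0.24 (adjusted p = 0.27) and Lbr, an inner nuclear membrane protein with sterol reductase activity, at −0.10 (adjusted p = 0.51).

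Of the 9 genes of fatty acid synthesis 4 fell, the elongase genes Elovl1 and Elovl6 and the desaturase genes Scd1 and Scd2, and the median was −0.27. Elovl1 and Scd1 had the largest changes of all 33 members, while those of Elovl6 and Scd2 were smaller than those of Idi1, Cyp51 and Hmgcs1. Elovl1 (chr4:118428093-118432953), which elongates saturated chains to the very long lengths found in sphingolipids, was at 7.70, 7.93 and 7.09 FPKM in control mice and 3.76, 3.75 and 3.82 FPKM in CKO mice. The CKO values lay close together and far below the controls, with a log2 fold change of −0.98 (SE 0.0565, adjusted p = 0.0016). Elovl6 (chr3:129532355-129638495), which elongates palmitate, was at 13.9, 13.4 and 13.3 FPKM against 9.87, 10.6 and 9.45 FPKM (−0.44, SE 0.0497, adjusted p = 0.014). It, too, was separate in all mice.

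Scd1 (chr19:44394455-44407879) and Scd2 (chr19:44293674-44306864), neighbors that both encode the desaturase that makes oleate, were measured at very different levels. Scd1 was at 32.6, 30.6 and 28.7 FPKM in control mice and 19.5, 19.8 and 20.4 FPKM in CKO mice (−0.62, SE 0.0504, adjusted p = 0.0047). Scd2, the form that prevails in brain, was at 216, 194 and 194 FPKM against 150, 160 and 149 FPKM (−0.39, SE 0.0575, adjusted p = 0.034). Neither gene overlapped between the groups, and in absolute level Scd2 lost the more: its mean was 47.8 FPKM lower and that of Scd1 10.7 FPKM lower. The pair shares few words with other genes (4.56% for Scd1 and 3.97% for Scd2, mostly with each other and with Scd3 and Scd4).

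The genes that assemble palmitate did not pass. Acly, which provides cytosolic acetyl-CoA, was at −0.16 (adjusted p = 0.37) and overlapped between the groups. Acaca, the carboxylase of the committed step, was at 10.5, 10.3 and 10.2 FPKM in control mice and 9.44, 9.33 and 9.11 FPKM in CKO mice, a small change with little spread (−0.15, SE 0.0333, adjusted p = 0.11); it shares 30.4% of its words with other genes, mainly the processed pseudogene Gm5182. Fasn, the fatty acid synthase, was at 30.2, 28.0 and 27.7 FPKM against 24.7, 25.9 and 24.0 FPKM (−0.20, SE 0.0463, adjusted p = 0.13). Both had separate groups. Of the desaturases of polyunsaturated fatty acids, Fads2 was at −0.27 (adjusted p = 0.12) with separate groups and Fads1 at −0.082 (95% interval −0.23 to 0.069) with overlapping groups.

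**Figure D3:**
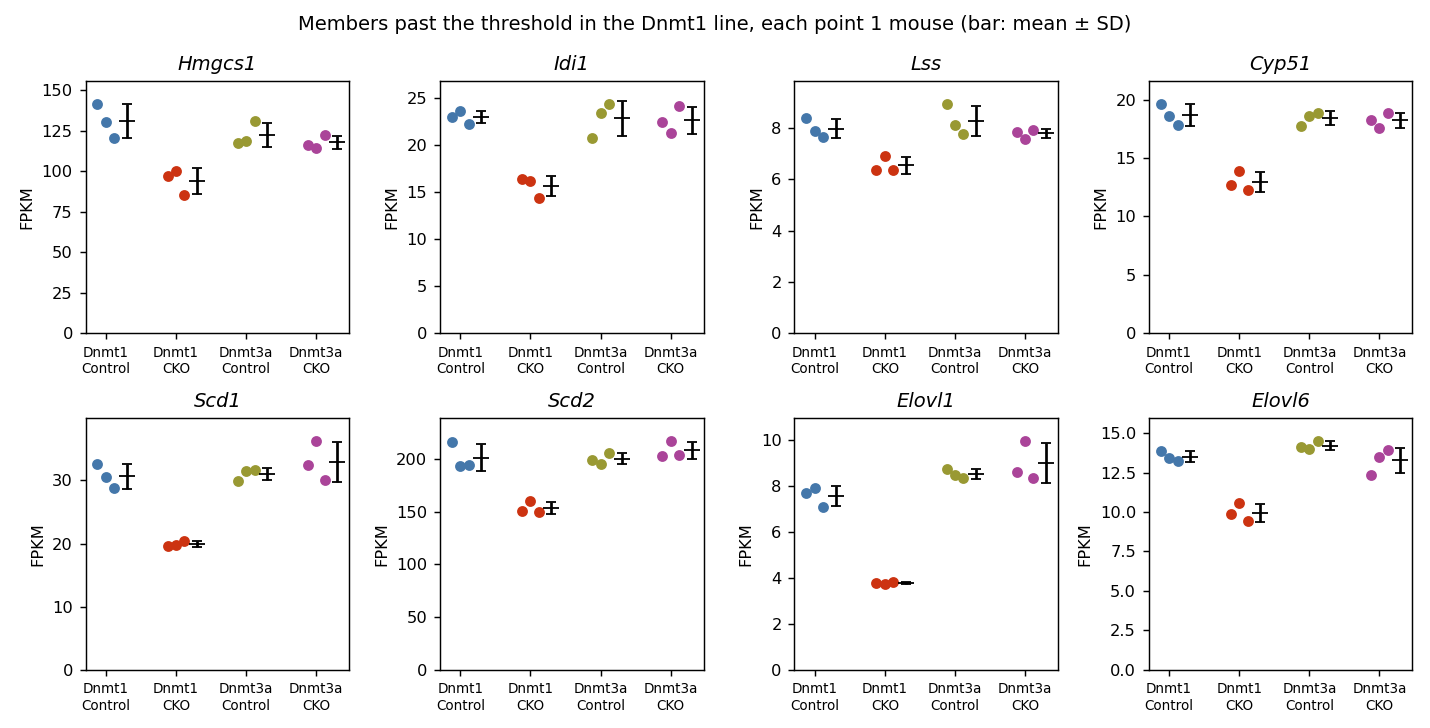
FPKM of the 8 members past the threshold in the Dnmt1 line, each point 1 mouse, with the mean ± SD (n = 3) of each group beside the points and axes that start at 0. The 3 Dnmt1 CKO values lie below all 9 other mice in each panel.

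Of the 8 calls, 5 held whichever of the 6 libraries of the Dnmt1 line was left out, those of Elovl1, Scd1, Idi1, Cyp51 and Elovl6. Scd2 kept its call in 3 of the 6 fits and Hmgcs1 in 1. The number of members called was 5 when replicate 2 of the Dnmt1 controls or replicate 1 of the Dnmt1 CKO group was left out, and 6 without replicate 3 of that CKO group.

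Markers of some cell types also differed between the Dnmt1 CKO mice and their controls. All 12 myelin markers fell in the Dnmt1 line, with a median log2 fold change of −1.95 and a range from −2.45 to −1.38, so each of them changed more than Elovl1. Their summed level was 1983 to 2306 FPKM in the controls and 585 to 681 FPKM in the CKO mice. Of the 6 genes listed as progenitor markers 3 fell, Gpr17 (−0.56), Sox6 (−0.31) and Pdgfra (−0.30). The other 3 had no call. Every CKO mouse was below every control in 5 of the 6, against 14.4% of all rows. Cspg4 was the exception, at −0.00062 with overlapping groups. The sum was 87.2 to 95.2 FPKM against 70.0 to 71.4 FPKM, and Gpr17, with means of 37.2 and 25.2 FPKM, weighs heavily in it. Of the 8 astrocyte markers 1, Gfap, rose (sums 658 to 680 and 654 to 661 FPKM); the list's median was −0.036, and 4 of the 8 were lower in every CKO mouse than in every control, without a call. Of the 8 microglia markers C1qa and C1qb rose (sums 105 to 110 and 116 to 122 FPKM), with a median of 0.038 and 3 of the 8 at a lower mean. None of the 8 neuron markers passed (sums 1795 to 1957 and 1879 to 1920 FPKM). At an unadjusted p under 0.05 there were 0 of them, against 2113 of the 14115 rows tested. The 6 endothelium, 5 choroid plexus and 4 blood markers had no call, but all 4 blood markers were lower in every CKO mouse (sums 184 to 308 and 111 to 153 FPKM). No marker of these lists was at 0 in any library. The part of these shifts in the members' changes was not tested. Among the CKO mice, Dnmt1 CKO replicate 3, the lowest in the early genes, also had the lowest sum of choroid plexus markers (84.5 FPKM, against 248 and 225 in replicates 1 and 2). Its sums of progenitor markers (70.0 FPKM, against 71.4 and 71.0) and blood markers (111.3 FPKM, against 153 and 111.4) were lowest only by small margins. Its myelin sum of 652 FPKM lay between those of replicates 1 and 2, 585 and 681 FPKM.

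Further genes of the pathways outside the 33 were counted from 3 lists of 62 genes, of which 60 were tested. In the Dnmt1 line 8 of the 60 fell and 0 rose, where 2.3% of all rows passed as lower. Without regard to any test 37 of the 60 had a lower mean (61.7%), as had 58.5% of all rows. The median log2 fold change was −0.048 over the 60 and −0.020 over all rows. In sterol synthesis, uptake and conversion 5 of 18 fell, among them Cyp27a1 and Npc2, and 8 of the 18 had a higher mean. Cyp27a1, a sterol hydroxylase, had a log2 fold change of −0.73 at a mean level under 1 FPKM in the controls (adjusted p = 0.022). Npc2, which carries cholesterol out of lysosomes, was at −0.26 (adjusted p = 0.092), a call lost with any 1 of the 6 libraries left out (adjusted p up to 0.24 over the alternatives).

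Of the 26 further fatty acid genes tested 3 fell, where 2.3% of all rows passed as lower, and 20 of the 26 had a lower mean. Fa2h, which hydroxylates the fatty acids of myelin galactolipids, went from 13.9, 12.3 and 11.8 to 3.62, 4.21 and 3.93 FPKM (−1.67, adjusted p = 0.0011). Elovl7, another elongase of very long chains, was at −0.96 (adjusted p = 0.0095), close to Elovl1, and the acyl-CoA synthetase gene Acsl6 at −0.13 (adjusted p = 0.088; also lost with any library left out, adjusted p up to 0.28 over the alternatives). Of the 16 genes of sterol sensing and efflux 0 passed, with 1 at an unadjusted p under 0.05, against 2113 of the 14115 rows tested. In the Dnmt3a line 0 of the 60 passed, with 4 at an unadjusted p under 0.05, against 1037 of the 14115 rows tested.

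None of the 33 members passed in the Dnmt3a line, where 0.0142% of all rows did. An unadjusted p under 0.05 was found for 1 of them, Sc5d, and for 1037 of the 14115 rows tested. The log2 fold changes ran from −0.11 (Sc5d) to 0.12 (Srebf1), with a median of 0.0040 over the members and 0.0067 over all rows, and adjusted p-values from 0.66 to 0.99. All 3 CKO mice were below all 3 controls in 2 members, Sc5d and Elovl6, against 5.43% of all rows (in these genes also without the library labelled Dnmt3a control replicate 2), and above them in 0, against 7.33%. The median was 0.029 for the early steps, −0.037 for the late steps, 0.053 for the regulators and 0.055 for fatty acid synthesis; without the library labelled Dnmt3a control replicate 2 these were 0.0098, −0.043, 0.082 and 0.038, and again 0 members passed. Elovl1, for example, was at 8.75, 8.47 and 8.33 FPKM in control mice and 8.62, 9.97 and 8.35 FPKM in CKO mice, which overlap. Its log2 fold change, 0.072, ran from −0.0050 to 0.12 with a library left out. The 95% interval of that change was −0.11 to 0.25, and that of Idi1 −0.20 to 0.17 and of Cyp51 −0.11 to 0.085. Myelin markers stood at sums of 2522 to 3008 FPKM in the controls and 2751 to 3136 FPKM in the CKO mice of this line, and 0 of 12 passed. The highest of these control sums, 3008 FPKM, belongs to the library labelled Dnmt3a control replicate 2; the other 2 controls, at 2701 and 2522 FPKM, lay below all 3 CKO mice.

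**Figure D4:**
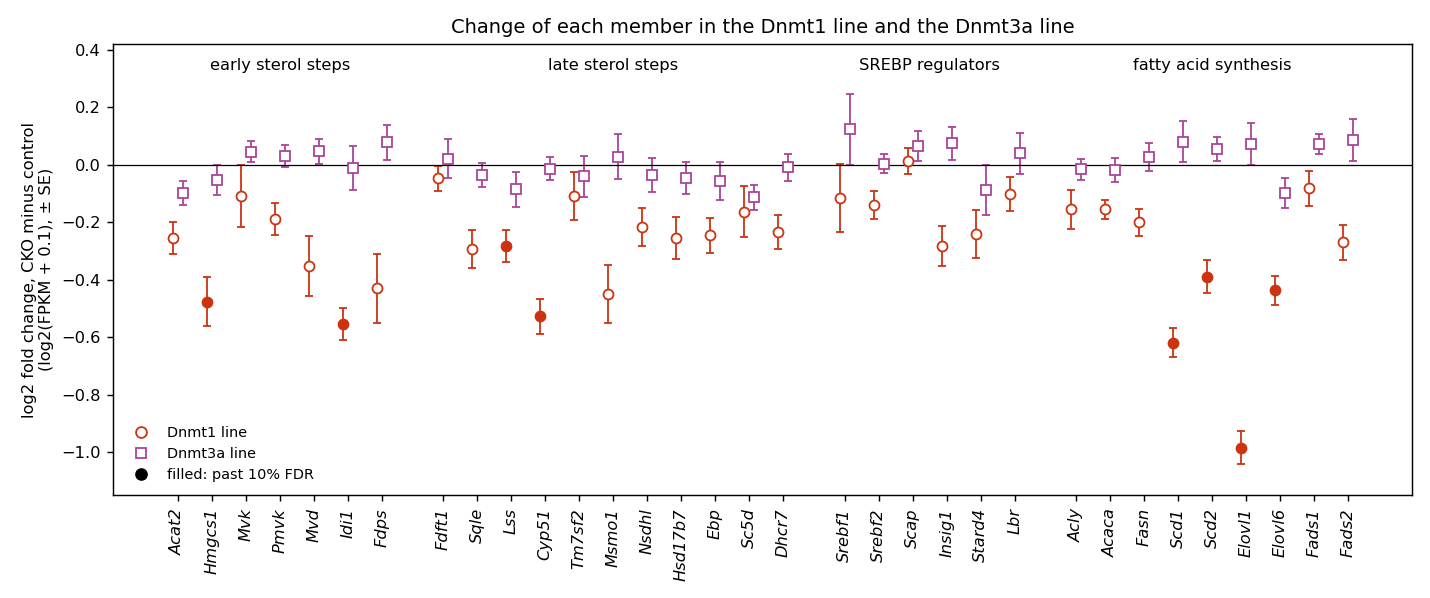
Log2 fold change ± SE (CKO minus control, log2(FPKM + 0.1) scale) of each member, ordered by role, in the Dnmt1 line (circles) and the Dnmt3a line (squares), filled where past 10% FDR. Circles reach −0.98 at Elovl1 and 8 are filled; squares stay between −0.11 and 0.12 and none is filled.

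Whether the knockout effect differed between the lines was asked with an interaction term in 1 model of the 12 libraries. It passed for 7 of the 33 members, against 2.13% of all rows, and each of the 7 had the more negative change in the Dnmt1 line. The difference was −1.05 for Elovl1 (adjusted p = 9.3e-05), −0.70 for Scd1 (adjusted p = 0.0025), −0.54 for Idi1 (adjusted p = 0.019) and −0.51 for Cyp51 (adjusted p = 0.0055). It was −0.45 for Scd2 (adjusted p = 0.0087), −0.42 for Hmgcs1 (adjusted p = 0.093) and −0.34 for Elovl6 (adjusted p = 0.053). Lss, called in the Dnmt1 line, did not pass here (−0.20, adjusted p = 0.42). Without the library labelled Dnmt3a control replicate 2, 6 members passed: Hmgcs1 and Elovl6 were lost and Insig1 was gained.

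The controls of the lines were compared as well, a comparison chosen after the values had been seen. At 10% FDR 0 of the 33 members passed, against 0.00708% of all rows. An unadjusted p under 0.05 was found for 2 members and for 1092 of the 14115 rows tested. Sc5d was the member that differed most, at 14.8, 16.0 and 17.9 FPKM in the Dnmt1 controls and at 21.0, 22.7 and 22.7 FPKM in the Dnmt3a controls (−0.45, SE 0.0762, adjusted p = 0.59; −0.52 to −0.38 with any 1 of these libraries left out). These values did not overlap, as in 3 of the 33 members, against 3.98% of all rows with all 3 Dnmt1 controls below all 3 Dnmt3a controls, and both Sc5d groups of the Dnmt1 line lay below both of the Dnmt3a line. Sc5d lies on chromosome 9, as does Dnmt1, at a distance of 21.29 Mb, so the chromosome region that comes with the floxed locus and other differences between the lines cannot be told apart. Elovl1 (−0.17, adjusted p = 0.62) and Elovl6 (−0.072, adjusted p = 0.68) were also lower in all Dnmt1 controls than in all Dnmt3a controls, as were all 12 myelin markers (median −0.35). Other markers went the other way: the 4 blood markers had higher means in the Dnmt1 controls (median 1.08, from 0.72 to 1.28) and so did the 5 choroid plexus markers (median 0.74, from 0.51 to 2.15). None of these markers passed the threshold, and their part in the members' differences was not tested.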

How the data were processed

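RNA-seq libraries from the cortices of 12 mice were grouped by the genotypes in the sample labels; 0 columns were left without a sample. The authors aligned reads to mm10 with TopHat, quantified genes with Cufflinks and deposited FPKM values. These are not counts, so no count test was run; read numbers are not given in the sources used here, and steps between low values put the relative depth of the libraries between 0.856 and 1. Removing 302 exact duplicate rows left 23548. Rows whose mean reached 0.5 FPKM were tested on log2(FPKM + 0.1) with limma 3.58.1 (R 4.3.3; eBayes with trend), each line on its 6 libraries, with Benjamini-Hochberg adjustment over all rows and a threshold of 10% FDR. Fold changes on this scale are slightly smaller than those of the FPKM values. The procedure was tested on simulated data. Positions and shared words of 50 bases come from GENCODE M21 (GRCm38). All members, the targeted genes, Olig1 and the called genes of the pathway lists are named, except some genes that are not reported here; markers are named beside results only. The members and lists were chosen with earlier results of these data known. Alternatives were pseudocounts of 1 and 0.01, other minimum levels (0.1 and 1 FPKM, or none), eBayes without trend or robust, rescaled or quantile-normalized libraries, all 12 libraries in 1 model, a replicate block, Xist as a covariate, 5% FDR and each library left out. Python 3.11.15, numpy 2.4.6, pandas 2.3.3 and matplotlib 3.10.9 were used.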

Additional observations from a re-analysis of the deposited data

Results flagged for a closer look

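In 7 members the effect of the knockout differed between the Dnmt1 line and the Dnmt3a line in the interaction test of limma over 12 libraries. The difference, Dnmt1 effect minus Dnmt3a effect on the log2 scale, was −1.05 for Elovl1, −0.70 for Scd1, −0.54 for Idi1, −0.51 for Cyp51, −0.45 for Scd2, −0.42 for Hmgcs1 and −0.34 for Elovl6. Of these, Elovl1, Scd1, Idi1, Cyp51 and Scd2 passed in every fit that left out 1 of the 12 libraries. Hmgcs1 passed in 3 of those 12 fits and Elovl6 in 5. No member was tested for a sample far from the others, since each group has 3 mice.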

How the results depend on the processing

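In the Dnmt1 line 31 of 33 members kept the sign of their change under every alternative. With a library left out, Srebf1 ran from −0.19 to 0.011 and Scap from −0.015 to 0.054. The number of members called, 8, became 15 with robust eBayes, 13 after rescaling or quantile normalization and 21 with all 12 libraries in 1 model, each holding the 8; it was 6 at 5% FDR (without Hmgcs1 and Lss), 7 with no filter (without Hmgcs1 and Lss, with Acaca), 7 with the Xist covariate (without Lss), and 5 to 7 with a library left out. Of all rows, 444 were called in this line, 263 at 5% FDR, and 198 to 340 with a library left out. Row calls also rose, to 545 with robust eBayes, 522 after rescaling, 543 after quantile normalization and 609 with all 12 libraries in 1 model. The sources used here do not say whether same-numbered mice of a line were paired. Correlations of deviations ran from −0.079 to 0.035 for same-numbered mice and from −0.093 to 0.107 for different-numbered ones. With 3 mice a group these values cannot decide it. A replicate block left 162 rows and 6 members (without Lss and Scd2) called in the Dnmt1 line, and 1 row and 0 members in the Dnmt3a line. In the difference between the lines it left 232 rows and 7 members, where Elovl6 was lost and Fdps gained. In the Dnmt3a line 2 rows were called, 20 with no filter, 1 at a pseudocount of 1, a minimum of 1 FPKM, quantile normalization, 1 model, the Xist covariate or 5% FDR, and 2 to 5 with a library left out; 0 members were called under any alternative. There 14 members, all close to 0, changed sign. With a library left out, Pmvk ran from −0.0024 to 0.048, Idi1 from −0.079 to 0.038, Fdft1 from −0.036 to 0.085, Cyp51 from −0.039 to 0.012, Msmo1 from −0.042 to 0.092, Nsdhl from −0.072 to 0.017, Dhcr7 from −0.043 to 0.024, Srebf2 from −0.022 to 0.018, Lbr from −0.012 to 0.079, Acly from −0.036 to 0.014, Acaca from −0.043 to 0.0046, Fasn from −0.0027 to 0.081 and Elovl1 from −0.0050 to 0.12; rescaling put Srebf2 at −0.0054, and quantile normalization put it at −0.027 and Scd2 at −0.0040. The number of reads behind each FPKM value is unknown, so counting error was not computed, and 3 mice a group limit the precision. The causes of these changes were not tested.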
